A study of Mus musculus with 36 samples.

Results

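The genes of the cytoplasmic ribosomal proteins were followed in the hippocampus of mice that lack Braf in forebrain neurons. A gene belonged to the group if its symbol on the array began with Rpl or Rps and a digit, or was Rpsa or one of Rplp0 to Rplp2, with the S6 kinase genes (Rps6k) left out. This rule used names only and found 58 of the 17711 genes with a symbol on the array, measured by 85 of its 46632 probes. Of the 58, 31 encode proteins of the large subunit, 17 proteins of the small subunit and 2 proteins of the stalk (Rplp0 and Rplp2). A further 5 are second genes of a ribosomal protein (Rpl22l1, Rpl39l, Rpl3l, Rpl36al and Rps27l). The other 3 matched the name pattern and were placed in none of these classes (Rpl7l1, Rps19bp1 and Rps23rg1). Each gene was read by the probe that was brightest over all arrays. The genes Rps6, Rplp1 and Rpl3 were not analysed here.

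The ribosome translates mRNA and consists of a small subunit, which decodes the message, and a large subunit, which joins the amino acids. Cells make its proteins in matched amounts, and most of their mRNAs begin with a C and a run of pyrimidines, the TOP tract, through which mTOR signaling controls their translation. ERK/MAPK signaling, in which BRAF activates MEK and MEK activates ERK, reaches ribosomes through the RSK kinases and through growth-related transcription. In neurons, protein synthesis is needed for lasting changes at synapses.

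Total RNA of the complete hippocampus of male mice was hybridized to Illumina MouseWG-6 arrays in 2 experiments. In the first, 5 Braf-cko mice were compared with 6 Braf-flox littermates at 4 months of age. Both groups were homozygous for the loxP flanked Braf allele on a mixed background (93.7% C57BL/6J, with FVB and 129/Sv), and Braf-cko mice also carried 1 copy of the CamkIIa-Cre transgene, which deletes Braf in principal neurons of the forebrain after birth. In the second, 6 CamkII-Cre mice, with 1 copy of the transgene and an intact Braf gene, were compared with 6 CamkII-wt littermates at 6 months, all on C57BL/6J. Glia, interneurons and vessels of the hippocampus keep Braf in Braf-cko mice, so that a change in principal neurons is diluted by the RNA of other cells. In such bulk tissue, fewer cells of a type and less RNA per cell cannot be told apart. In all, 36 arrays stood for 23 animals, since Braf-cko mouse 1 and every mouse of the second experiment had 2 arrays, which were averaged.

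All values are log2 of the deposited normalized intensity, and a log2 change of 0.25 is a factor of 1.19. The median of an array was 5.70 to 5.74 for the Braf-cko and Braf-flox arrays, and 6.02 to 6.13 for the CamkII-Cre and CamkII-wt arrays, so levels are not compared between the experiments. The only Braf probe was too dim to be tested in the Braf experiment (5.37 to 5.66 in Braf-cko mice, 5.45 to 5.76 in Braf-flox mice), and its place relative to the deleted exon was not determined, so it checks no label. Of 7 ERK target genes (Dusp4, Dusp5, Dusp6, Egr1, Egr4, Etv5 and Spred1), which respond to loss of the pathway, 7 were lower in Braf-cko mice. The authors had already reported these genes as lower from the same arrays. The list was chosen with that known, so it is no independent check of the labels. Further probes of Dusp4, Dusp6 and Etv5 passed as well. Another probe of Dusp4 and another of Spred1 missed the threshold, with log2 changes of -0.23 and -0.27 (limma adjusted p = 0.236 and 0.303). Dusp6, a phosphatase that ERK induces, had a median of 7.42 (6.83 to 7.87) in 5 Braf-cko mice and of 8.55 (8.26 to 9.11) in 6 Braf-flox mice, with a log2 change of -1.30 (SE, the standard error of the fit, 0.19, limma adjusted p = 0.00475). None of the 7 passed in CamkII-Cre mice (0 of 7).

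The ribosomal protein genes covered most of the range of the arrays. Group means of the tested genes lay between 5.75 (Rpl22l1) and 14.46 (Rpl41, the smallest ribosomal protein) in Braf-cko mice, and between 5.76 (Rps19) and 14.37 (Rpl41) in Braf-flox mice. In the second experiment they lay between 6.33 and 15.12 in CamkII-Cre mice, and between 6.34 and 15.09 in CamkII-wt mice. Probes differ in how brightly they bind their target, so these levels are not compared between genes. Of the 58 genes, 51 were bright enough to be tested in each experiment, which means that their probe was among the brighter 50% of all probes (23316). Many ribosomal protein genes have processed copies elsewhere in the genome, and how far a probe also binds their transcripts was not tested.

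The start sites of these genes are shown because the TOP tract is their common mark and because sites of ETS factors, some of which ERK activates, are common near them. RefSeq windows of 300 bases (GRCm38.p6, 250 before the start and 50 from it on) were found for 47 of the 58 genes, 58 windows in all. A start base C followed by at least 4 pyrimidines stood exactly at an annotated start of 10 of these 47 genes (21.3%), against 467 of 17492 protein-coding genes (2.67%). A tract of this kind began within 10 bases of a start in 25 of 47 (53.2%), against 34.9% of all genes. In the windows of 30 bases below, 15 before the start and 15 from it on, the capitals mark the tract, read 5′ to 3′ on the strand of the gene.
Rps15a, chr7:118116133-118116162, minus strand: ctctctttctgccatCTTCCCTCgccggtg
Rps18, chr17:33955651-33955680, minus strand: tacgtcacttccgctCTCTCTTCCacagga
Rps21, chr2:180257364-180257393, plus strand: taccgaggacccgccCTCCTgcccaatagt
Rps27, chr3:90213634-90213663, minus strand: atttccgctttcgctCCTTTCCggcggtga
Rplp2, chr7:141447636-141447665, plus strand: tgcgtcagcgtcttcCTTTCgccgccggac
Rpl14, chr9:120571502-120571531, plus strand: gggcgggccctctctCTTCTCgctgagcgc
Rpl28, chr7:4792950-4792979, plus strand: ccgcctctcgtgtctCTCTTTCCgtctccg
Rpl35, chr2:39005117-39005146, minus strand: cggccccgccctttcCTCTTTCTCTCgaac
Rpl35a, chr16:33056467-33056496, plus strand: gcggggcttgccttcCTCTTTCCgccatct
Rpl38, chr11:114668565-114668594, plus strand: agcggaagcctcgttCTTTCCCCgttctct

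The tracts ran from 5 bases in Rplp2 and Rps21 to 11 bases in Rpl35. In the Braf experiment, the 9 tested genes with a tract at the start had a median log2 change of -0.0043, and the 32 tested genes without one had a median of -0.0086. The ETS core CCGGAA, searched on both strands (CCGGAA or TTCCGG), stood in a window of 23 of the 47 genes (48.9%), against 20.9% of all protein-coding genes. The cAMP response element TGACGTCA, which reads alike on both strands, stood in 4 of 47 (8.51%, against 2.54%). Windows of 30 bases around the core are given for the 4 genes in which it began 9 to 26 bases before a start, with the core in capitals.
Rps3a1, chr3:86142660-86142689, minus strand: agattcttaaagCCGGAAgggcgaaagagc
Rpl38, chr11:114668548-114668577, plus strand: ggggttaaccgtCCGGAAgcggaagcctcg
Rpl37, chr15:5116578-5116607, plus strand: caccaagacccgCCGGAAgtagtttcctgg
Rps21, chr2:180257341-180257370, plus strand: gagtaccctgacCCGGAAgcacttaccgag

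The 20 tested genes with the core had a median log2 change of -0.0037 in Braf-cko mice, and the 21 without it a median of -0.013. A match to a motif is a description of the sequence and does not show that a factor binds there.

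The first comparison asked whether loss of Braf in forebrain neurons changed the ribosomal protein mRNAs of the hippocampus. No ribosomal protein gene passed the test. Of the 51 tested, 0 were lower and 0 were higher at an adjusted p under 0.05, against 124 of all 23316 probes (0.532%), of which 87 were lower (0.373%) and 37 higher (0.159%). At an unadjusted p under 0.05, 2 were lower (Rpl34 and Rps27l) and 3 were higher (Rps15a, Rps24 and Rps19), where 5.41% of all probes were lower and 5.37% higher (10.8% in all). The median log2 change of the 51 genes was -0.014, beside 0.0025 for all probes. Of the 51 changes, 33 were below 0 and 18 above, where 11426 of the 23316 probes were below 0 and 11890 above. The range ran from -0.20 (Rpl34) to 0.31 (Rps15a).

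The intervals of these changes were narrow. For 51 of the 51 genes the 95% interval of the log2 change lay within 0.5 of 0, a factor of 1.41, where 92.7% of all probes met this limit. For 34 of 51 it lay within 0.25 of 0, where 41.6% of all probes did. The size of the change was under 0.1 for 43 of the 51. The largest bounds were 0.46 for Rps15a and -0.43 for Rpl29, whose level in Braf-cko mouse 1 (8.13) was below the 8.94 to 9.01 of the other 4 mutants. Braf-flox mouse 4 was low as well (8.37), below the 8.90 to 9.22 of the other 5 controls. The interval of no tested gene (0 of 51) reached a factor of 1.41 in either direction.

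**Figure D1:**
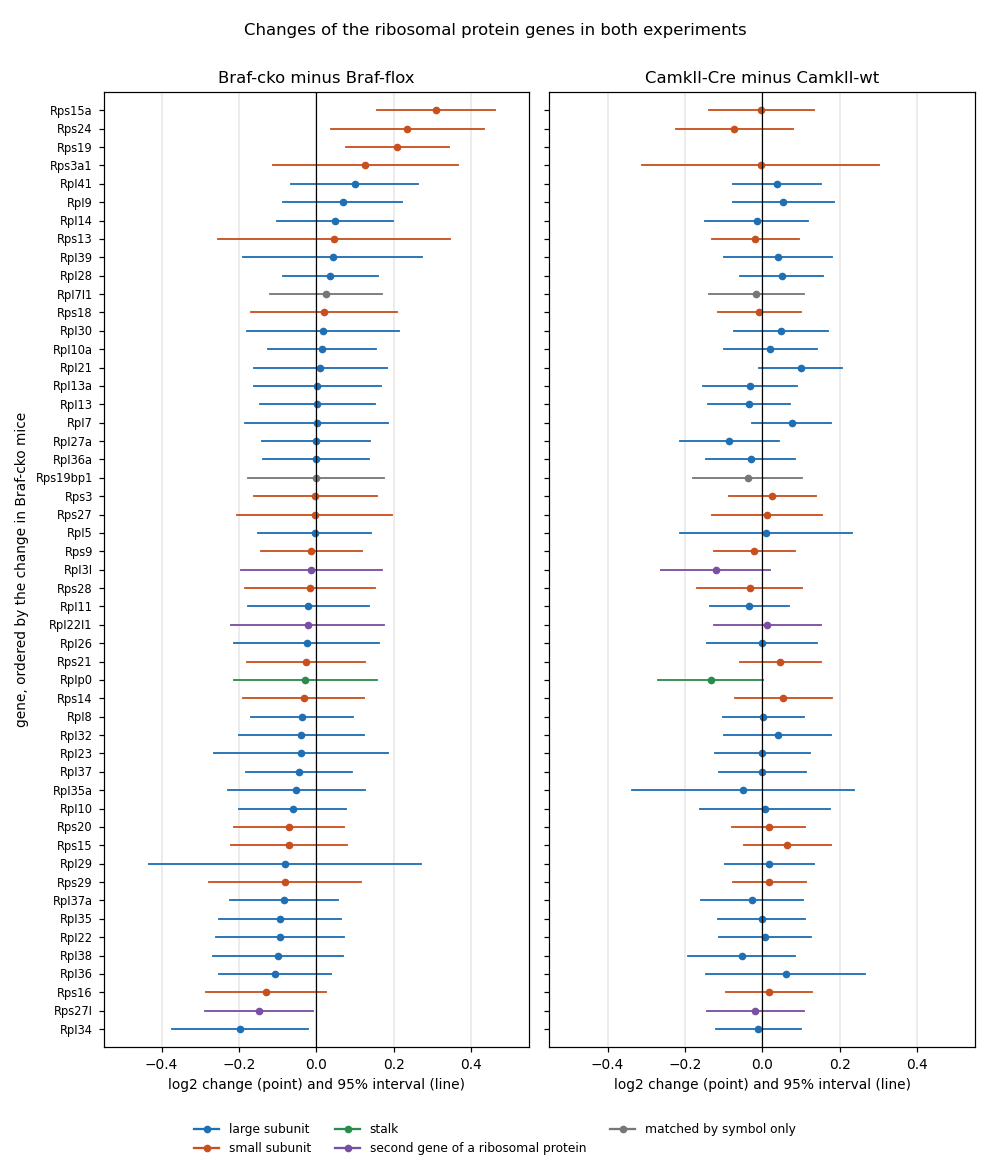
Log2 change (points) and 95% interval (lines) of each ribosomal protein gene tested in the Braf experiment, in Braf-cko minus Braf-flox mice (left) and CamkII-Cre minus CamkII-wt mice (right), coloured by the class of the protein. In the Braf experiment 46 of 51 intervals hold 0 and the points run from -0.20 (Rpl34) to 0.31 (Rps15a). All lines drawn for the CamkIIa-Cre experiment hold 0, and Rps19 has none there, since it was too dim to be tested.

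Among small subunit genes, Rps15a, a protein of the platform of the subunit, came nearest to the threshold. It was at 9.69, 9.57, 9.80, 9.70 and 9.76 in the 5 Braf-cko mice, against a lowest value of 9.21, a median of 9.44 and a highest of 9.50 in the 6 Braf-flox mice. The groups did not overlap, and the log2 change was 0.31 (SE 0.07, unadjusted p = 0.000663 and adjusted p = 0.0833 by limma). This is a level of 123.9% of the controls. Over 21 alternative settings its change lay between 0.27 and 0.34 and its adjusted p between 0.0543 and 0.30, so that it missed the threshold in each of them.

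Rps19 encodes a protein needed for maturation of the small subunit, which is mutated in human Diamond-Blackfan anemia. Its probe was dim, at 5.97, 6.05, 5.91, 5.95 and 5.95 in Braf-cko mice, against 5.64, 5.75 and 5.85 (lowest, median and highest) in Braf-flox mice. The lowest mutant lay above the highest control, and the log2 change was 0.21 (SE 0.06, adjusted p = 0.20). A second Rps19 probe was too dim to be tested. Rps15a and Rps19 were the only genes of the 51 whose groups did not overlap. This is 2 genes higher and 0 lower, where 0.691% of all probes were higher and 1.03% lower without overlap (1.72% in all).

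Rps24, also a gene of Diamond-Blackfan anemia in humans, was at 8.86, 8.78, 8.89, 8.71 and 8.98 in Braf-cko mice, against 8.38, 8.63 and 8.88 in Braf-flox mice. The groups overlapped in the upper controls, and the log2 change was 0.24 (SE 0.09, adjusted p = 0.364). A second tested probe of Rps24 had a change of 0.049, so that the probes differed by 0.19, the widest gap of any gene with several tested probes. Rps3a1, a protein at the mRNA exit side of the subunit, was at 9.37, 8.97, 9.46, 9.61 and 9.07 in Braf-cko mice, against 9.02, 9.15 and 9.40 in Braf-flox mice. Its change of 0.13 (SE 0.11, adjusted p = 0.753) was within the spread of the mutants. Rps16 was at 12.08, 12.18, 12.07, 12.29 and 12.003 in Braf-cko mice, against 12.11, 12.26 and 12.39 in Braf-flox mice, a change of -0.13 (SE 0.07, adjusted p = 0.557). The 16 small subunit genes tested had a median change of -0.0086, with 6 changes above 0 and 10 below.

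The 29 large subunit genes tested had a median change of -0.021, with 11 above 0 and 18 below. Rpl34 had the most negative change of all. It was at 12.16, 12.10, 12.10, 12.13 and 11.80 in Braf-cko mice, against 12.05, 12.26 and 12.37 in Braf-flox mice. The groups overlapped in the lowest control, and the log2 change was -0.20 (SE 0.08, adjusted p = 0.399). Braf-cko mouse 5 stood well below the other mutants, and without it the change was -0.13. Rpl36 was at 8.85, 9.09, 9.08, 8.94 and 8.97 in Braf-cko mice, against 8.96, 9.10 and 9.19 in Braf-flox mice, a change of -0.11 (SE 0.07, adjusted p = 0.63). The stalk protein Rplp0, which anchors the other stalk proteins and is a common reference gene in qPCR, had a change of -0.028 (SE 0.09, adjusted p = 0.955).

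**Figure D2:**
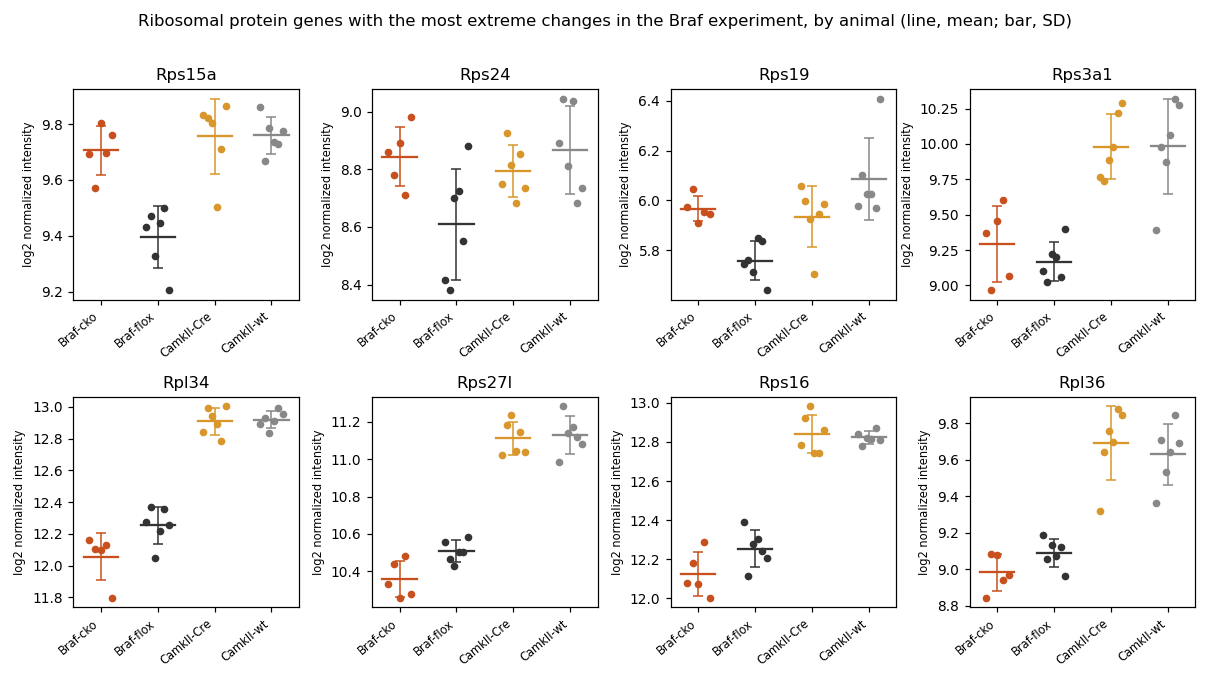
Log2 normalized intensity of the 4 genes with the most positive change (upper row) and the 4 with the most negative change (lower row) in the Braf experiment, by animal (points), with the group mean (line) and SD (bar), n = 5 Braf-cko, 6 Braf-flox, 6 CamkII-Cre and 6 CamkII-wt mice. The Braf-cko and Braf-flox points do not overlap for Rps15a and Rps19 and overlap for the other 6 genes. Levels are not compared between the 2 experiments, whose array medians differ.

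The genes with a near copy moved no further. Rps27l, a second gene of Rps27 that p53 induces, was at 10.33, 10.44, 10.26, 10.48 and 10.28 in Braf-cko mice, against 10.43, 10.50 and 10.58 in Braf-flox mice. Its change of -0.15 (SE 0.07, adjusted p = 0.431) missed the threshold, and Rps27 itself had a change of -0.0043. Rpl22, and Rpl22l1, which Rpl22 represses and which can stand in for it in mice, had changes of -0.094 and -0.023. Rpl3l, known from heart and skeletal muscle, had a change of -0.014 on a dim probe (6.03 in Braf-cko mice and 6.05 in Braf-flox mice). The changes of Rpl36a and Rpl39 were -0.00081 and 0.042, while their second genes Rpl36al and Rpl39l were too dim to be tested.

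A few further members were read for their known roles, with their values already seen. Rpl5, Rpl11 and Rpl23, whose free proteins bind Mdm2 and so raise p53, had changes of -0.0045, -0.021 and -0.039 in the Braf experiment, with adjusted p of 0.993, 0.964 and 0.944 from limma. Rpl38, which in mice is needed for translation of Hox mRNAs, averaged 9.08 ± 0.10 in Braf-cko mice and 9.18 ± 0.14 in Braf-flox mice (SD, n = 5 and 6), a change of -0.099 (SE 0.08). Rps3, which also takes part in DNA repair, had a change of -0.0031. Rpl41 had a change of 0.099 (SE 0.08, adjusted p = 0.705). The changes of Rpl7l1 and Rps19bp1, which share the name pattern and act in ribosome assembly or bind a ribosomal protein, were 0.025 and -0.0015.

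The 7 genes not tested in the Braf experiment were Rpl17, Rpl36al, Rpl39l, Rpl4, Rplp2, Rps23rg1 and Rpsa. Their group means lay between 4.91 and 5.72, where the array medians were 5.70 to 5.74, and their differences, given with no test, ran from -0.18 (Rpl36al) to 0.13 (Rpsa). Rpsa, a small subunit protein also called the laminin receptor, averaged 5.46 ± 0.11 in Braf-cko mice and 5.33 ± 0.08 in Braf-flox mice (SD, n = 5 and 6). Rplp2 averaged 5.53 ± 0.11 in Braf-cko mice and 5.46 ± 0.17 in Braf-flox mice. Values this close to the array median bound the level only loosely.

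Where a gene had several probes, they served as a second reading of the same change. Of the 13 genes with several tested probes in the Braf experiment, the changes had the same sign in 9, and the median gap between probes was 0.049. Rps9, a protein linked to decoding accuracy, was read by 5 tested probes. Its brightest probe had a log2 change of -0.013, and the others had changes of 0.079, 0.090, 0.050 and 0.088. None of these differences exceeded 2 of their standard errors, the smallest of which was 0.060.

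The second comparison asked whether the Cre transgene alone changed these mRNAs. No gene passed here either. Of 51 tested, 0 passed in each direction at an adjusted p under 0.05, where 2 of 23316 probes did (0.00858%). At an unadjusted p under 0.05, the count was also 0 of 51, where 1.63% of all probes passed, 0.755% lower and 0.875% higher. The median change was -0.000056, beside -0.00040 for all probes, and the range ran from -0.13 (Rplp0) to 0.099 (Rpl21). The 95% interval lay within 0.25 of 0 for 46 of 51 genes (74.9% of all probes) and within 0.5 for 51 of 51 (98.3%). No gene had groups without overlap (0 of 51), where 0.0815% of all probes did, 0.0429% higher and 0.0386% lower.

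Rplp0 was lowest at 7.28, with a median of 7.35 and a highest value of 7.42 in CamkII-Cre mice, against 7.22, 7.52 and 7.63 in CamkII-wt mice. The groups overlapped through CamkII-wt mouse 1, and the change was -0.13 (SE 0.06, adjusted p = 1). It was -0.27 on the second array of each mouse and 0.00061 on the first, so that the second arrays alone carried it. Rpl21, a large subunit protein, was at 8.40, 8.57 and 8.62 (lowest, median and highest) in CamkII-Cre mice, against 8.33, 8.46 and 8.50 in CamkII-wt mice, with a change of 0.099 (SE 0.05, adjusted p = 1). The other named extremes at the low end were Rpl3l with -0.12, Rpl27a with -0.085 and Rps24 with -0.073. At the high end they were Rpl7 with 0.076, Rps15 with 0.065 and Rpl36 with 0.060. Further tested probes had changes of 0.067 for Rpl27a, 0.053 and 0.0055 for Rps24, and -0.011 and 0.042 for Rpl21. Of 13 genes with several tested probes in this experiment, 8 had changes of the same sign. The widest gap between probes was 0.15 (Rpl27a). Rps15a, highest of all in the Braf experiment, had a change of -0.0030 (SE 0.06).

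The change in the Braf experiment was then set against the change in the CamkIIa-Cre experiment in a fit of all 23 animals. Of the 52 genes tested, 0 passed at an adjusted p under 0.05, where 43 of 23316 probes did (0.184%, with 0.146% lower and 0.0386% higher). At an unadjusted p under 0.05, 3 genes were higher and 0 lower, where 3.37% of all probes were higher and 3.30% lower (6.66% in all). The 95% interval of the difference lay within 0.25 of 0 for 20 of 52 genes (18.7% of all probes) and within 0.5 for 48 of 52 (85% of all probes). These 3 were Rps19 with a difference of 0.36 (SE 0.10, adjusted p = 0.246), Rps15a with 0.31 (SE 0.09, adjusted p = 0.308) and Rps24 with 0.31 (SE 0.12, adjusted p = 0.561). All 3 belong to the small subunit, but the further tested probes of Rps24 had differences of -0.0038 and 0.0017. Rps19 was too dim to be tested in the CamkIIa-Cre experiment, where its change, given with no test, was -0.15. The median difference over the 52 genes was -0.020, beside 0.0026 for all probes. Of 50 genes tested in both experiments, 24 had changes of the same sign, and across these genes, which share animals and arrays, the correlation of the changes was -0.051 (Pearson) and -0.0098 (Spearman).

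Averaged over the 51 tested genes, the animals differed little. The mean was 11.02 ± 0.06 in Braf-cko mice and 11.03 ± 0.04 in Braf-flox mice (SD, n = 5 and 6), and 11.59 ± 0.04 in CamkII-Cre mice and 11.59 ± 0.05 in CamkII-wt mice (SD, n = 6 each). The single values were 11.034, 11.055, 11.005, 11.079 and 10.928 in Braf-cko mice, against 10.997 to 11.097 in Braf-flox mice. Braf-cko mouse 5 was the lowest of the 11 and had the lowest value of the mutants for 27 of the 51 genes. Braf-flox mouse 1 was the highest and had the highest value of the controls for 26 of 51. The shares of all probes that were lowest or highest in these mice were not counted.

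The genes varied together between animals to a limited degree. With each group centred on its mean, the median correlation of gene pairs was 0.17 in the Braf experiment, beside 0.0017 for pairs of all probes, and 64.7% of the gene pairs were above 0, beside 50.2%. For the CamkIIa-Cre experiment, the median was 0.14, beside 0.00017. The points of such a pair share the same arrays. The first principal component held 35.0% of the variance of the genes in the Braf experiment and 50.8% in the CamkIIa-Cre experiment. The genes were not scaled to equal variance for this, so those with the widest spread weigh most. The same share was not computed for all probes.

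The spread between animals of a group was smaller than for most probes. The median within-group SD was 0.11 in the Braf experiment, beside 0.14 for all probes, and 0.089 in the CamkIIa-Cre experiment, beside 0.12. Among probes of a mean of at least 11, the medians were 0.10 for 33 ribosomal protein genes and 0.12 for all probes in the Braf experiment. In that experiment Rpl28 had the lowest SD (0.048) and Rpl29 the highest (0.33). In the CamkIIa-Cre experiment Rps29 had the lowest (0.048) and Rps3a1 the highest (0.29).

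**Figure D3:**
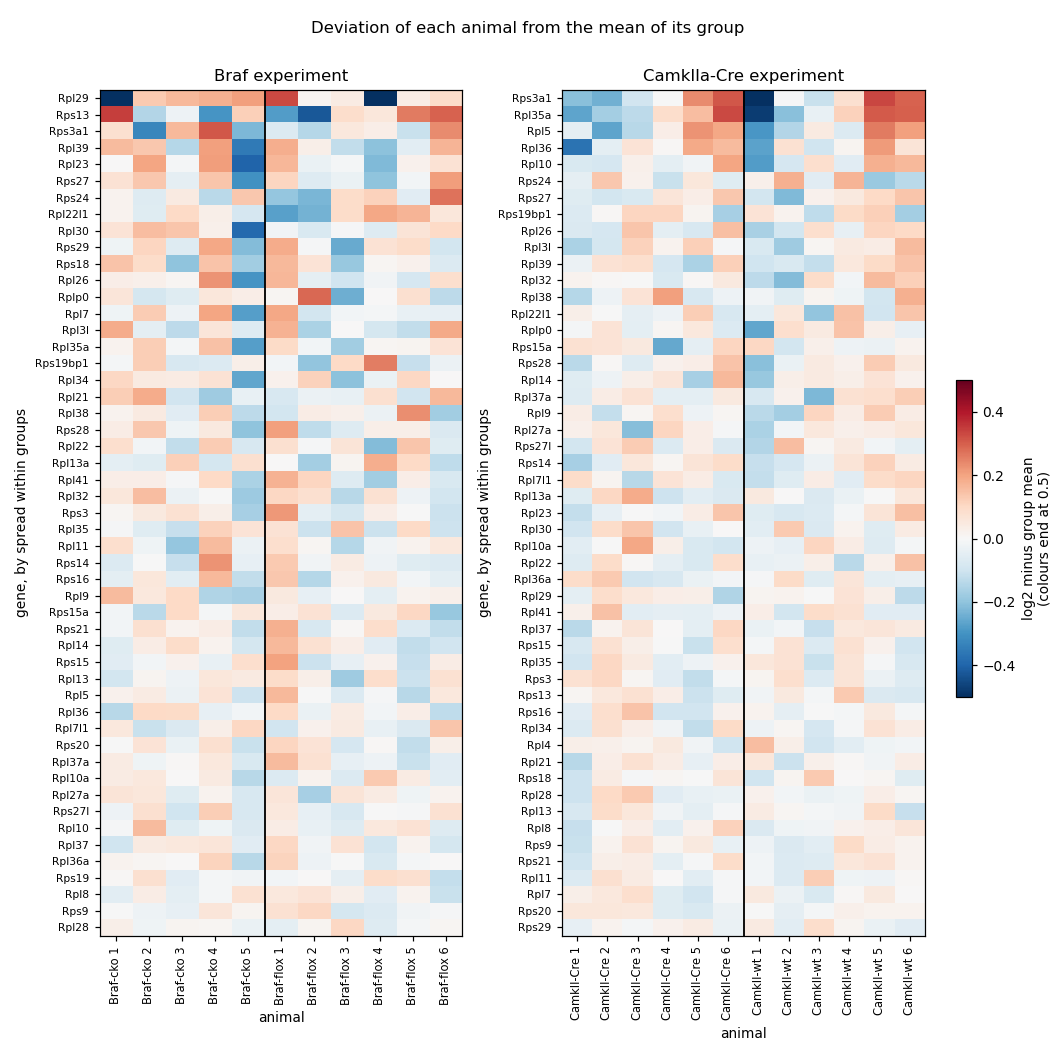
Log2 intensity of each tested ribosomal protein gene (rows, widest spread at the top) in each animal (columns), minus the mean of its group, in the Braf experiment (left) and the CamkIIa-Cre experiment (right). Red is above and blue below the group mean, and colours end at 0.5. Braf-cko mouse 5 has the lowest value of its group in 27 of 51 genes (share of all probes not counted). In the CamkIIa-Cre experiment Rps3a1, Rpl35a, Rpl5, Rpl36 and Rpl10 stand out at the top.

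In the CamkIIa-Cre experiment, the difference between both arrays of the same mouse was larger than the difference between genotypes. The labels number these arrays 1 and 2 and say no more of how they differ. The median over the 51 genes of array 2 minus array 1 was -0.24, beside -0.062 for all probes, and the mean over the genes was negative in 12 of 12 mice (-0.36 ± 0.04, SD). The median size of the genotype change was 0.026, beside 0.039 for all probes. The array difference exceeded the genotype change for 48 of 51 genes, and the share of all probes for which it did was not counted. Of the 51 genes, 29 were lower on array 2 in 12 of 12 mice, where 26.4% of all probes were, and 2 were higher in 12 of 12, where 4.81% were. For 7 genes the mean difference was below -1, where 2.55% of all probes met this limit.

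These values depend on the scaling of the arrays. With each array centred on its median over the tested probes, the median difference was -0.012 for the 51 genes and 0.17 for all probes. With quantile normalization, the medians were -0.093 and 0.070. By each scaling the median of the ribosomal protein genes was below that of all probes, by 0.18 as deposited, 0.18 after centring and 0.16 after quantile normalization. The number of genes lower in 12 of 12 mice was 21 after centring and 23 after quantile normalization, and the number lower by over 1 was 3 and 6. The share of all probes past these limits was not counted for these scalings, so the counts cannot be set against it.

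The 7 genes below -1 were Rpl36, Rps3a1, Rpl10, Rpl5, Rpl32, Rpl35a and Rpl26. Rpl36 was at 8.55, 8.96 and 9.23 (lowest, median and highest of 12 mice) on array 2 and at 10.06, 10.47 and 10.55 on array 1. The arrays did not overlap, and the mean difference was -1.46 ± 0.13 (SD), so that array 2 read 36.4% of array 1. Rps3a1 was at 8.76, 9.27 and 9.78 on array 2 and at 10.03, 10.72 and 10.96 on array 1, a mean difference of -1.42 ± 0.24. Rpl10, which the large subunit takes up late in its assembly, was at 11.01, 11.16 and 11.46 on array 2 and at 12.04, 12.48 and 12.60 on array 1, a mean difference of -1.25 ± 0.16. Rpl5, which brings an rRNA into the large subunit and can bind the p53 regulator Mdm2, had a difference of -1.21 ± 0.22. Of the 7, 6 belong to the large subunit and 1 to the small subunit, with 30 and 15 tested. The median over all tested genes of a subunit was -0.22 for the large and -0.35 for the small subunit.

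At the other end, Rpl22 was at 11.51, 11.76 and 11.85 on array 2 and at 11.29, 11.39 and 11.64 on array 1, a mean difference of 0.34 ± 0.13, and Rpl21 had a difference of 0.25 ± 0.16. Both were higher on array 2 in 12 of 12 mice. Rpl36a had a difference of 0.00077, and 11 genes lay within 0.1 of 0. The genes with the large differences also varied most between mice. The 5 genes with the widest within-group SD were Rps3a1, Rpl35a, Rpl5, Rpl36 and Rpl10, each of them among the 7 below -1. Averaged over both genotypes, these 5 were higher in mice 4 to 6 than in mice 1 to 3, by 0.14 (Rpl10) to 0.43 (Rpl35a). Of the 51 genes, 29 were higher in mice 4 to 6, and this difference had a Pearson correlation of -0.62 with the array difference. What sets these mice apart was not tested. Across the 51 genes, which share the same arrays, the size of the array difference and the within-group SD had a correlation of 0.70 (Pearson) and 0.44 (Spearman).

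The genotype changes on single arrays were small in both. The median change of CamkII-Cre minus CamkII-wt mice was -0.014 on array 2 and 0.019 on array 1, and 27 of 51 genes had the same sign on both arrays. Each mouse of both genotypes had both array numbers. Braf-cko mouse 1, the only mouse of the Braf experiment with 2 arrays, had a median difference of -0.043 between them over these genes, with a range from -0.30 to 0.43, the highest value being that of Rpl36.

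**Figure D4:**
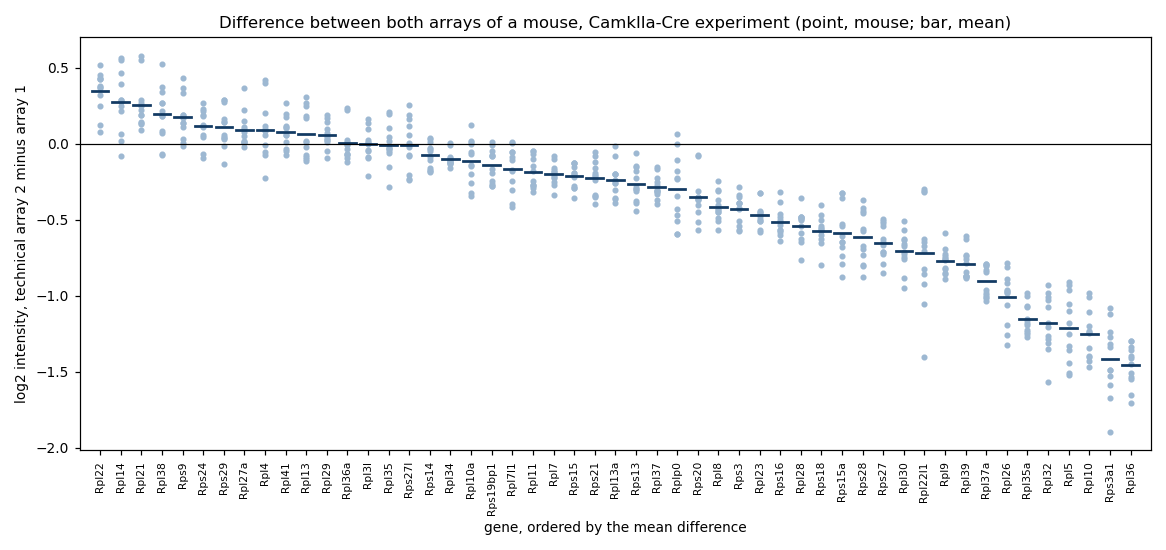
Log2 intensity on technical array 2 minus array 1 for each ribosomal protein gene tested in the CamkIIa-Cre experiment, in 12 mice (points), with the mean (bars), as deposited. Genes are ordered from Rpl22 (0.34) to Rpl36 (-1.46), and 7 of 51 means lie below -1.

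Other genes of the translation machinery did not pass the test either. In the Braf experiment 0.532% of all probes passed, with a median change of 0.0025, so counts of 0 in lists of this size are near that share. Of 71 mitochondrial ribosomal protein genes tested, whose products form the separate ribosome of mitochondria, 0 passed in the Braf experiment, with a median change of -0.053. Of 9 elongation factor genes and 34 initiation factor genes, 0 and 0 passed, with medians of -0.029 and -0.026. Of 15 other mRNAs with a TOP tract, 0 passed (median -0.034), and Fau, a ribosomal protein gene with another symbol, had a change of -0.017. Of 42 ribosome biogenesis genes, 0 passed (median -0.0010), and neither did any of 4 S6 and RSK kinase genes or of 17 genes of mTOR signaling (0 of 4 and 0 of 17). In the CamkIIa-Cre experiment, 0 genes of each of these lists passed as well, where 0.00858% of all probes did.

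Markers of the cell types of the hippocampus were read beside these values, again with 0.532% of all probes passing in the Braf experiment. Of 9 neuron markers and 8 markers of hippocampal principal cells tested in the Braf experiment, 0 and 0 passed, with medians of 0.036 and -0.079. Of 7 astrocyte, 7 oligodendrocyte, 6 microglia and 8 endothelial and mural markers, 0 passed, with medians of -0.049, -0.10, 0.069 and -0.034. The mean level of the neuron markers was 11.34 to 11.46 in Braf-cko mice and 11.34 to 11.47 in Braf-flox mice. Of 4 choroid plexus markers and 5 blood markers, 0 and 0 passed, with medians of -0.43 and -0.040. The choroid plexus changes were all below 0, from -0.15 to -1.06, with SEs of 0.23 to 0.97, and the median was the farthest from 0 of any cell type list. The mean level of these 4 markers was 6.10 to 6.76 in Braf-cko mice and 5.83 to 8.14 in Braf-flox mice. The part of these cell types in the values of the ribosomal protein genes was not tested.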

How the data were processed

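In R, the authors ran beadarray, limma and vsn (order, settings and versions are not given in the sources used here) and deposited a normalized intensity on a linear scale for each probe and array. A table of signals before normalization has 72 columns whose names match no sample label, and it was not used. Groups, animal numbers and technical arrays followed the labels. The log2 of the intensity was averaged over the arrays of an animal, which reduced 36 arrays to 23 animals. Each experiment was fitted alone. A further fit of all 23 animals gave the difference of the changes. Probes in the brighter 50% of the table by mean over the animals of the fit (23316 of 46632) were tested two-sided by lmFit and eBayes of limma 3.58.1 (R 4.3.3, statmod 1.5.0). Their p-values were adjusted by Benjamini-Hochberg, with a threshold of 0.05. The number of animals limits the precision, and p-values set a difference between groups against the spread between animals. The fits were also run on simulated data with added changes. The simulated noise was independent between probes and animals, so this run does not cover spread that genes or arrays share.

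The annotation of the platform named 1 gene for 29976 probes, several genes for 10 probes and no gene for 16646 probes. All 58 genes were matched to RefSeq by identifier or symbol. Start sites came from RefSeq (GRCm38.p6). Rpl17, Rpl21, Rpl29, Rpl30, Rpl32, Rpl36, Rpl7, Rpl8, Rps14, Rps20 and Rps29 were not matched there. The rule named genes past the threshold, the 4 most negative and 4 most positive changes of each experiment, genes without overlap in the Braf experiment, the stalk genes, Rpsa, genes with a near copy and genes not tested. Genes named for their array difference, spread, probes, start site, level or role outside the ribosome were picked with their values known. The members and lists were chosen with earlier results of these data known. Figures were drawn with matplotlib 3.10.9 in Python 3.11.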

Additional observations from a re-analysis of the deposited data

Results flagged for a closer look

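In 9 of 112 groups checked, 1 animal stood apart from the others of its group by more than Dixon's 95% limit, where chance gives about 1 in 20. In Braf-cko mice, Rpl10 was at 11.55 in mouse 2 and at 11.32 to 11.39 in the others, and Rpl34 was at 11.80 in mouse 5 and at 12.10 to 12.16 in the others. In Braf-flox mice, Rpl27a was at 11.86 in mouse 2 (others 12.001 to 12.09), Rpl7 at 12.03 in mouse 1 (others 11.74 to 11.83) and Rplp2, which was too dim to be tested, at 5.80 in mouse 3 (others 5.32 to 5.47). The mean of the 51 tested genes was 11.10 in Braf-flox mouse 1 and 10.997 to 11.03 in the other controls.

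In the CamkIIa-Cre experiment, Rpl27a was at 12.22 in CamkII-Cre mouse 3 (others 12.43 to 12.54) and at 12.36 in CamkII-wt mouse 1 (others 12.51 to 12.57). Rps19, not tested in this experiment, was at 6.41 in CamkII-wt mouse 6 (others 5.97 to 6.10), and without that mouse the difference of Rps19 between the Braf change and the Cre change was 0.29, beside 0.36 with it.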

How the results depend on the processing

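No ribosomal protein gene passed the threshold in either direction (0 of those tested) under any alternative run: 21 for the Braf experiment, 24 for the CamkIIa-Cre experiment and 32 for the difference between them. The median change stayed between -0.032 and 0.0029, between -0.014 and 0.019, and between -0.045 and 0.013 in this order. The count over the whole table moved more. In the Braf experiment 124 probes passed, against 19 by the methods' t-test after adjustment and 69 to 114 with 1 mouse left out (72 without Braf-cko mouse 1, 69 without mouse 4, 76 without mouse 5 and 81 without Braf-flox mouse 5). With CamkII-Cre and CamkII-wt mice, 2 passed, against 6 with no filter on dim probes, 4 in the brightest 25% of probes, 4 after centring, 1 by the t-test, 4 on first arrays, 4 with mice 1 to 3 and 4 to 6 as blocks, 4 with all 24 arrays and the mouse as a random block, and 2 to 4 with 1 mouse left out. The cause was not tested.

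Some changes turned sign. In the Braf experiment these were Rpl36a after quantile normalization (0.032) and on first arrays (0.011), Rps27 after quantile normalization (0.010) and Rpl3l on second arrays (0.016). Between CamkII-Cre and CamkII-wt mice they were Rplp0 (0.00061, beside -0.13 over both arrays, the largest change in size of that experiment), Rpl22 (-0.0070), Rpl22l1 (-0.0061) and Rps27l (0.073) on first arrays, and Rpl10 (-0.0059), Rpl39 (-0.0024) and Rps27 (-0.025) on second arrays. With 1 mouse left out, the Braf changes ran from -0.077 to 0.016 (Rpl22l1), -0.028 to 0.034 (Rpl36a), -0.0094 to 0.13 (Rpl39), -0.059 to 0.025 (Rpl3l), -0.077 to 0.029 (Rplp0) and -0.045 to 0.071 (Rps27). The Cre changes ran from -0.049 to 0.042 (Rpl10), -0.020 to 0.036 (Rpl22), -0.026 to 0.042 (Rpl22l1), -0.031 to 0.041 (Rps27) and -0.047 to 0.013 (Rps27l).

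The median difference between technical arrays was -0.24 as deposited, -0.012 with arrays centred and -0.093 after quantile normalization. The quantile setting was chosen after seeing the data.

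The labels do not say whether replicate numbers pair the animals, and the values here do not settle it. Same-numbered deviations correlated by -0.14 to 0.13 in the Braf experiment (over 0.1 in 2 of 5 pairs, with 1 of 5 mice nearest to its own number) and by -0.24 to 0.59 in the CamkIIa-Cre experiment (3 of 6 pairs, 2 of 6 mice). With the number as a block, 0 ribosomal protein genes passed in both experiments, with medians of -0.012 and -0.000056, and 58 and 3 probes of the whole table did. Rps27 and Rpl3l turned to 0.037 and 0.025 in this fit, which leaves out Braf-flox mouse 6.

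Probes near the array median bound a change only loosely, and the tissue mixes cells with and without Braf.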
